A study of Paeonia suffruticosa with 12 samples.

Results

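Cytochrome P450 monooxygenases were followed in cultured embryo seedlings of the peony "FengDan" through 4 unigenes of the assembled transcriptome of 130956 unigenes. A unigene is the longest transcript that the assembler grouped under an identifier. The 4 are TRINITY_DN6_c0_g2 and TRINITY_DN6_c0_g3, both annotated with the Swiss-Prot symbol C7124, TRINITY_DN6_c0_g4, annotated C7113, and TRINITY_DN31378_c0_g1, annotated C7A15. They were chosen by identifier from the lists of differentially expressed genes (DEGs) that the study drew up on these same libraries. Both C7124 unigenes came from the list for AC vs. AC and PVP, C7113 from that for AC vs. PVP, and C7A15 from the latter list, that for AC vs. CK and that for AC and PVP vs. PVP. In the comparisons that supplied a list the values of the members are therefore a description without a test. PVP vs. CK and AC and PVP vs. CK supplied no list and were tested. Their CK, PVP and AC and PVP libraries also entered the comparisons that did. The p-values of the members there are therefore not independent of how the members were chosen.

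The RNA came from 12 libraries of seedlings raised from "FengDan" seed embryos, 3 in each of 4 media. The medium of CK was free of anti-browning agents, that of PVP contained polyvinyl pyrrolidone at 2 g/L, that of AC contained activated carbon at 0.9 g/L, and that of AC and PVP contained 0.9 g/L of the carbon with 2.5 g/L of the polymer. Polyvinyl pyrrolidone is a polymer that binds phenolics, activated carbon adsorbs compounds released into the medium, and both are used to limit browning of tissue cultures. The polyvinyl pyrrolidone dose differed between PVP and AC and PVP, so dose and combination cannot be told apart in what follows. All samples carry the label of 30 days after rooting, and each pooled 10 seedlings. The study reports that seedlings in CK and PVP did not root, while those in AC and in AC and PVP did. The label therefore cannot hold literally for CK and PVP, and the presence of AC and rooting cannot be told apart. The labels describe mixed roots, stems and leaves, and the methods of the study mixed leaves and roots, and the study selected media that differed in rooting, so a change in the RNA of a cell type and a change in the number of its cells cannot be told apart.

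P450 enzymes are haem proteins, most of them anchored in the endoplasmic reticulum of plant cells, that insert an oxygen atom into a substrate with electrons from NADPH passed on by P450 reductase or cytochrome b5. The CYP71 clan, the largest P450 clan of plants, is known above all for specialised metabolism, including steps towards phenylpropanoids, terpenoids, alkaloids and cyanogenic glucosides. Such enzymes make and modify many of the phenolic and other defence compounds that plant tissue releases on wounding. The annotations are Swiss-Prot symbols given by the study, and no sequence of the unigenes was at hand, so their place in this clan and their substrates could not be checked. C7A15 may stand for an entry of the CYP72A family, which belongs to another P450 clan. They are called here the P450 unigenes. The 3 unigenes of the DN6 cluster were grouped by the assembler from shared sequence, and reads that fit more than 1 of them were divided by estimation, so their sum is given beside them.

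Total estimated counts ran from 11071691 in AC and PVP replicate 3 to 25069044 in PVP replicate 2, with a median of 20067557.5. Levels below are TMM-scaled CPM, in which each library's total is adjusted before the counts are divided by it. The scaling factors ran from 0.752 to 1.46, with the 2 highest in CK. Without them the median log2 fold change over all unigenes moved from -0.16 to -0.76 in PVP vs. CK and from -0.12 to -0.49 in AC and PVP vs. CK. Marker transcripts of seed reserves (storage proteins and oil body proteins, 16 unigenes) summed to between 3521 and 47612 CPM of the library total in the CK libraries and to between 1961 and 5822 in those of PVP. The range was 3240.2 to 28267 for AC and 2531 to 20237 for AC and PVP. Light harvesting and photosynthesis markers (11 unigenes) summed to 45.6 to 209 for CK and 195 to 443 for PVP, with 108 to 191 for AC and 257 to 421 for AC and PVP. Casparian strip markers (4 unigenes) lay between 10.5 and 35.9. Of these, 3 carry symbols of CASP-like proteins, a family not limited to roots, so they do not show how much root each library held. Of the 16 seed reserve unigenes, 12 to 16 were seen in each library.

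C7113 was the 1 member that fell in PVP relative to CK. Its TMM-scaled CPM were 196, 734 and 455 in CK replicates 1 to 3 and 30.5, 57.6 and 87.7 in PVP, so that all PVP libraries lay below all CK libraries. They were 300.2, 610 and 88.6 in AC and 53.0, 85.5 and 96.4 in AC and PVP. AC replicate 3 lay within the range of the libraries with PVP, while the other 5 libraries without PVP lay above all 6 libraries with it. C7113 was listed for AC vs. PVP, so this separation is a description. The group means were 462 ± 269 for CK and 58.6 ± 28.6 for PVP, with 333 ± 262 for AC and 78.3 ± 22.6 for AC and PVP (SD, n = 3). In order from low to high the groups were PVP, AC and PVP, AC and CK, and each neighbour in that order overlapped with the next.

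C7113 was 7.88-fold lower in PVP than in CK, a log2 fold change of -2.98 with a standard error (SE) of 0.63 and an adjusted p of 0.0448 by edgeR's quasi-likelihood test with Benjamini-Hochberg adjustment. A unigene was called when the adjusted p was under 0.05 and the absolute log2 fold change over 1. Of the 4 members, 1 was called in PVP vs. CK, while 0.704% of all 58247 unigenes tested were called and 0.173% were called lower. The PVP libraries also entered the comparison that listed C7113, so this count is not independent of the choice. The call sat close to the threshold. It was lost when library sizes were scaled by RLE (adjusted p = 0.0504) and when edgeR was fitted to CK and PVP alone (adjusted p = 0.0597). Leaving out CK replicate 2 or 3 or any PVP library also ended it, with adjusted p-values by edgeR of 0.0951 to 0.165, while without CK replicate 1 the adjusted p was 0.0489. The log2 fold change stayed between -3.39 and -2.48 in all of those fits.

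In AC and PVP vs. CK, C7113 was 5.90-fold lower (log2 fold change -2.56, SE 0.62), with no overlap between the groups. It did not pass edgeR's quasi-likelihood test (adjusted p = 0.0671). DESeq2 on all 12 libraries gave a log2 fold change of -2.43 and an adjusted p of 0.00791. Of the 4 members, 0 were called by edgeR in this comparison, against 0.786% of all unigenes tested. At an unadjusted p under 0.05 by the same test all 4 members and 7435 of the 58247 unigenes passed. The AC and PVP libraries also entered comparisons that listed both C7124 unigenes and C7A15, so this count is not independent of the choice. All 4 members were called with the replicate number as a block in the edgeR fit. That fit called 1433 of all unigenes in this comparison, where the main fit called 458. The adjusted p-values by the fit with the block were 0.00514 for C7113, 0.0192 for TRINITY_DN6_c0_g2, 0.0257 for TRINITY_DN6_c0_g3 and 0.0392 for C7A15. All 4 were also called without a filter on low counts, a fit for which the share over all unigenes is not given here. In that fit the log2 fold change of C7113 was -2.53, close to the main fit, while its SE was 0.39 in place of 0.62.

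The comparisons that include AC show the same unigene as values without a test. The log2 fold change of C7113 was 2.51 (SE 0.62) in AC vs. PVP, the comparison that chose it. It was 2.09 (SE 0.61) in AC vs. AC and PVP. Between groups with the same status for PVP it was -0.47 (SE 0.59) in AC vs. CK and 0.42 (SE 0.59) in AC and PVP vs. PVP. Averaged over both levels of AC, the difference between the 6 libraries with PVP and the 6 without was -2.53 (SE 0.44). Averaged over both levels of PVP, the difference between the 6 libraries with AC and the 6 without was -0.03 (SE 0.41).

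The 2 libraries with the highest level of C7113, CK replicate 2 and AC replicate 2, also had the highest seed reserve sums, 47612 and 28267 CPM. AC and PVP replicate 2 had the next sum, 20237, with C7113 at 85.5 TMM-scaled CPM, and CK replicate 3, with a sum of 3521, held 455. Without CK replicate 2 the log2 fold change of C7113 in PVP vs. CK was -2.48 (adjusted p = 0.0959 by edgeR). The light harvesting and photosynthesis markers also differed by medium, with sums of 195 to 443 CPM in the 6 libraries with PVP and 45.6 to 209 in the 6 without it, where CK replicate 3 (209) and PVP replicate 2 (195) were the libraries that overlapped. Between 8 and 11 of these 11 unigenes were seen in each library. The parts of seed reserve tissue and of green tissue in the levels of C7113 and the C7124 unigenes were not tested.

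**Figure D1:**
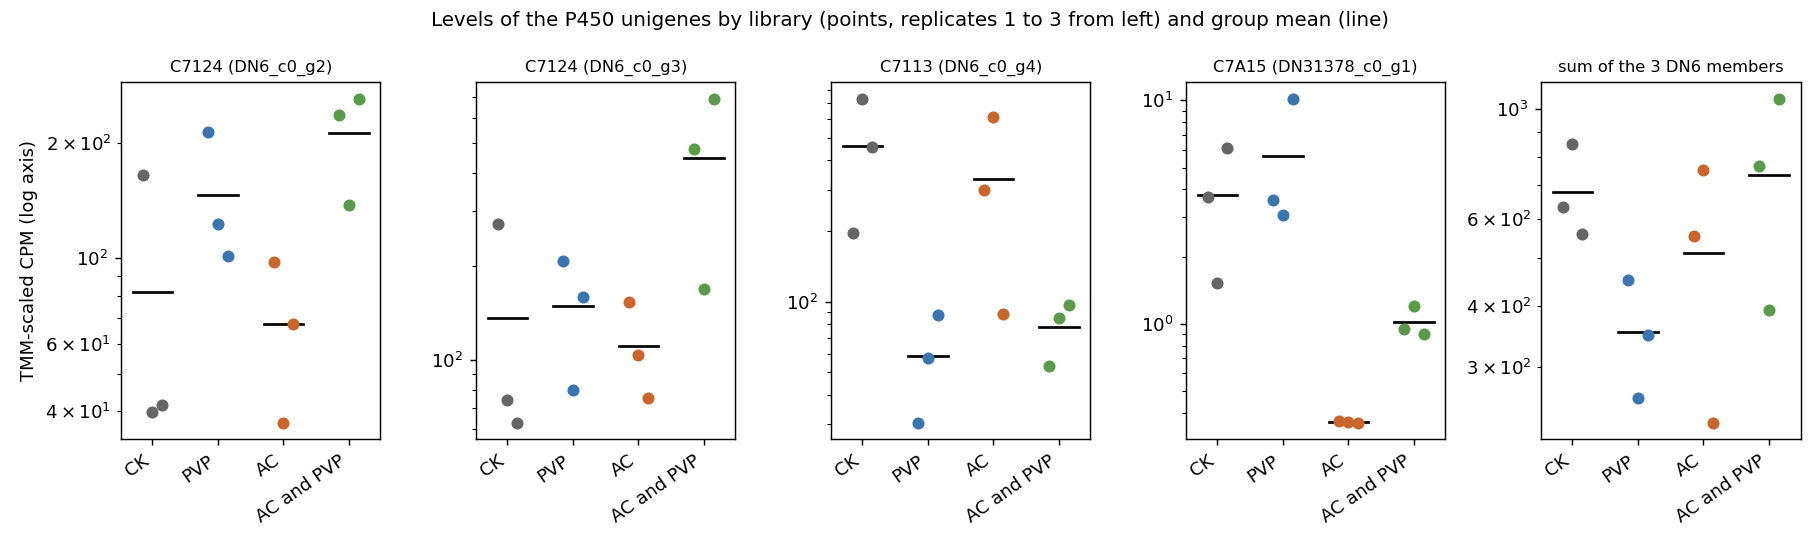
Levels of the 4 P450 unigenes and of the sum of the 3 DN6 members in each library, as TMM-scaled CPM on a log axis. Each point is a library, with replicates 1 to 3 from left to right, and each line is the mean of 3 libraries. C7113 is between 30.5 and 96.4 in the 6 libraries with PVP, and C7A15 is between 0.361 and 1.21 in the 6 libraries with AC. Both ranges are descriptions, since these libraries entered the comparisons that chose the members.

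The 2 C7124 unigenes had their highest group mean in AC and PVP. TRINITY_DN6_c0_g2 had TMM-scaled CPM of 164, 39.8 and 41.6 in CK and of 213, 123 and 102 in PVP. It had 98.1, 37.4 and 67.5 in AC and 236, 138 and 260.4 in AC and PVP. CK replicate 1 lay within the range of the libraries with PVP, and AC did not overlap with either PVP or AC and PVP. The group means were 81.9 ± 71.4 for CK and 146 ± 59.3 for PVP, with 67.7 ± 30.4 for AC and 211 ± 65.0 for AC and PVP (SD, n = 3). From low to high the order was AC, CK, PVP, AC and PVP, and each neighbour overlapped with the next.

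TRINITY_DN6_c0_g3, one of the genes that the study also chose for qRT-PCR, had TMM-scaled CPM of 273, 74.0 and 62.7 in CK and of 208, 79.7 and 159.6 in PVP. It had 154, 103 and 75.6 in AC and 478, 169 and 693 in AC and PVP. All 3 AC and PVP libraries lay above all 3 AC libraries, and AC and PVP replicate 2 lay within the range of CK and PVP. The group means were 137 ± 119 for CK and 149 ± 64.6 for PVP, with 111 ± 39.7 for AC and 446 ± 264 for AC and PVP (SD, n = 3), in the same order from low to high as for the other C7124 unigene and again with overlap between neighbours.

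Neither C7124 unigene passed the test against CK in the edgeR fit by group alone, while both were called in AC and PVP vs. CK with the replicate block. In PVP vs. CK the log2 fold change was 0.83 (SE 0.52, adjusted p = 0.593 by edgeR) for TRINITY_DN6_c0_g2. For TRINITY_DN6_c0_g3 it was 0.12 (SE 0.57, adjusted p = 0.961 by edgeR), and it took the opposite sign, -0.54, with library sizes alone. In AC and PVP vs. CK the log2 fold change of TRINITY_DN6_c0_g2 was 1.37 (SE 0.52, adjusted p = 0.269 by edgeR). That of TRINITY_DN6_c0_g3 was 1.71 (SE 0.59, adjusted p = 0.212 by edgeR). Without CK replicate 1 TRINITY_DN6_c0_g2 was called in AC and PVP vs. CK, with a log2 fold change of 2.46 and an adjusted p of 0.0464 by edgeR, and TRINITY_DN6_c0_g3 had 2.79 and 0.061. This was the 1 call for TRINITY_DN6_c0_g2 in 6 fits with a library left out, and TRINITY_DN6_c0_g3 had 0. The log2 fold changes fell as low as 1.03 and 1.29, and the adjusted p-values by edgeR rose as high as 0.527 and 0.537.

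In AC vs. AC and PVP, the comparison that chose them, the log2 fold change was -1.64 (SE 0.53) for TRINITY_DN6_c0_g2 and -2.01 (SE 0.59) for TRINITY_DN6_c0_g3. Relative to PVP, AC and PVP differed by 0.53 (SE 0.51) and 1.58 (SE 0.59), and AC by -1.11 (SE 0.52) and -0.42 (SE 0.57). Relative to CK, AC differed by -0.28 (SE 0.51) and -0.30 (SE 0.57). The difference made by AC in the presence of PVP minus that in its absence was 0.81 (SE 0.73) for TRINITY_DN6_c0_g2 and 1.88 (SE 0.82) for TRINITY_DN6_c0_g3. It was 0.89 (SE 0.83) for C7113 and 0.91 (SE 0.75) for C7A15.

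The sum of the 3 DN6 members was not called in any comparison. It came to 634, 848 and 559 TMM-scaled CPM in CK and to 451, 260.3 and 349 in PVP. It came to 552, 751 and 232 in AC and to 767, 392 and 1049.6 in AC and PVP. CK and PVP did not overlap, and the 2 groups with AC spanned the whole range of values. The log2 fold change of the sum was -0.94 (SE 0.46, adjusted p = 0.467 by edgeR) in PVP vs. CK and 0.11 (SE 0.46, adjusted p = 0.929 by edgeR) in AC and PVP vs. CK. No alternative setting and no left-out library gave a call. As values without a test, the sum in AC differed by -0.41 from CK, by 0.53 from PVP and by -0.52 from AC and PVP, and AC and PVP differed from PVP by 1.06, each with an SE of 0.46.

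The division of the DN6 reads differed between the media. C7113 held 30.9%, 86.6% and 81.4% of the summed counts of the 3 members in CK and 54.4%, 81.3% and 38.2% in AC. It held 6.76%, 22.1% and 25.1% in PVP and 6.91%, 21.8% and 9.18% in AC and PVP. Every library with PVP lay below every library without it. This separation is a description, since the AC, PVP and AC and PVP libraries entered the comparisons that chose the DN6 members and C7113 was listed for its difference between AC and PVP. These are shares of reads and not of molecules, since the lengths of the unigenes are not in the counts. The mean share of C7113 was 66.3% ± 30.7 for CK and 18.0% ± 9.85 for PVP, with 58.0% ± 21.7 for AC and 12.6% ± 8.04 for AC and PVP (SD, n = 3). The rest went to both C7124 unigenes, with TRINITY_DN6_c0_g2 at a mean of 41.2% in PVP and 30.2% in AC and PVP, and TRINITY_DN6_c0_g3 at 40.8% and 57.1%. In CK and AC the means were 12.7% and 17.3% for TRINITY_DN6_c0_g2 and 21.0% and 24.8% for TRINITY_DN6_c0_g3. Since C7113 and the C7124 unigenes share a total here, a lower share of the first is by construction a higher share of the others.

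**Figure D2:**
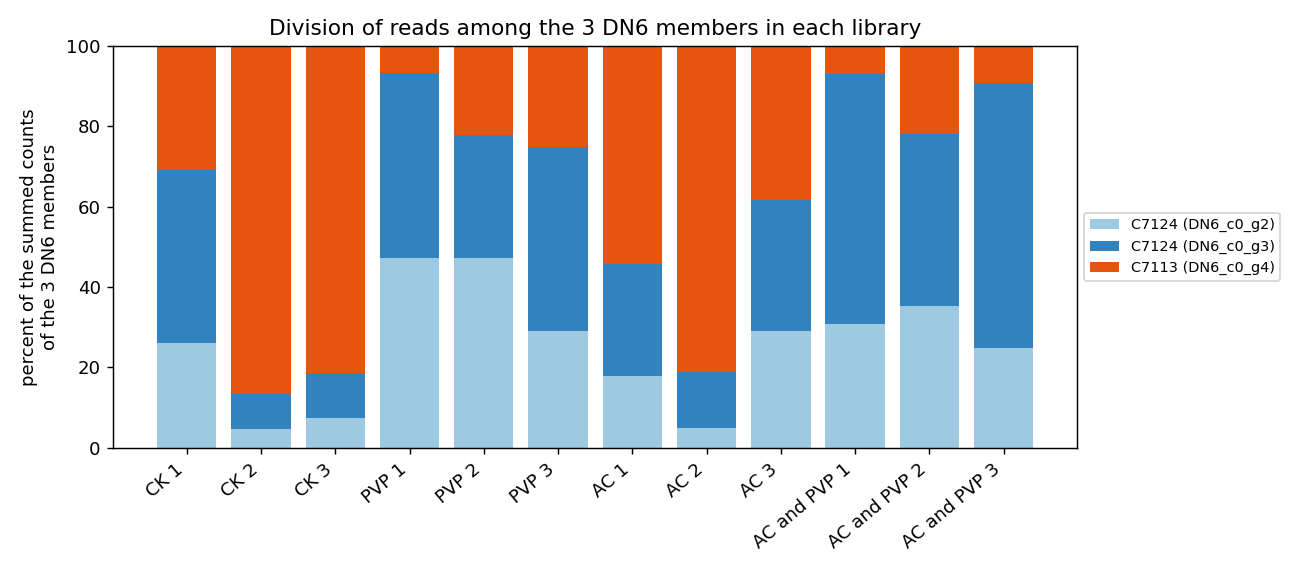
Percent of the summed estimated counts of the 3 DN6 members held by each member, stacked to 100 in each of the 12 libraries. The share of C7113 is between 6.76% and 25.1% in the 6 libraries with PVP and between 30.9% and 86.6% in the 6 without it.

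The counts of TRINITY_DN6_c0_g2 were whole numbers in all libraries but 1, those of C7113 were not whole in 5 libraries and those of TRINITY_DN6_c0_g3 not in 10. A count that is not whole holds reads that were divided between transcripts. How many reads were divided is not given by the counts, and the part of that division in the shares was not tested.

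The DN6 cluster held 5 further unigenes besides the members. The 3 members together took 51.5% to 91.4% of the counts of the cluster in each library. TRINITY_DN6_c0_g1, which had no symbol in the study's lists, was seen in all 12 libraries at 63.6 to 208 TMM-scaled CPM, and its log2 fold change was 0.29 (SE 0.33) in PVP vs. CK and 0.15 (SE 0.33) in AC and PVP vs. CK, with an adjusted p of 0.758 and 0.873 by edgeR. TRINITY_DN6_c0_g7, annotated C71A1, another P450 symbol, had 16.8, 184 and 38.6 in CK and 1.99, 37.8 and 5.28 in PVP. It had 16.7, 7.19 and 9.13 in AC, and 0, 4.34 and 4.96 in AC and PVP. It was highest in CK replicate 2, as was C7113, and all 3 AC and PVP libraries lay below all CK libraries. It was not called in PVP vs. CK (log2 fold change -2.41, SE 1.11, adjusted p = 0.437 by edgeR). AC and PVP vs. CK gave -4.72 (SE 1.25, adjusted p = 0.0956 by edgeR), which did not pass either. TRINITY_DN6_c0_g5 had counts in 3 libraries (CK replicates 2 and 3, and AC and PVP replicate 1), TRINITY_DN6_c0_g8 had 3 counts in each of 2 libraries, and TRINITY_DN6_c0_g6 had none.

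A second unigene with the symbol C7A15, TRINITY_DN9292_c0_g1, was more abundant and is described with the other P450 unigenes. The C7A15 meant here is TRINITY_DN31378_c0_g1, the member outside the DN6 cluster. It was scarce in every library and lowest in the media with AC. Its counts were 124, 34 and 157 in CK and 85, 58 and 163 in PVP. They were 9, 7 and 6 in AC and 20, 18 and 10 in AC and PVP. All 6 libraries with AC lay below all 6 without it. In TMM-scaled CPM the CK libraries held 3.69, 1.53 and 6.10 and the PVP libraries 3.60, 3.08 and 10.2. The AC libraries held 0.367, 0.364 and 0.361 and those of AC and PVP 0.950, 1.21 and 0.902. The group means in this order were 3.77 ± 2.29, 5.62 ± 3.96, 0.364 ± 0.00273 and 1.02 ± 0.165 (SD, n = 3). In order from low to high the groups were AC, AC and PVP, CK and PVP, and among neighbours CK and PVP overlapped.

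The close values of the 3 AC libraries do not measure their precision. A count of 9, 7 or 6 has an exact Poisson 95% interval of 0.168 to 0.696, 0.147 to 0.751 or 0.133 to 0.786 TMM-scaled CPM, each much wider than the spread among the 3. The 22 counts of the AC group together gave 0.364 with an interval of 0.228 to 0.552, and the 48 counts of AC and PVP gave 1.02 with an interval of 0.752 to 1.35. These intervals cover counting error only.

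C7A15 did not pass the test by group alone in either comparison that had not chosen it, and it was called in AC and PVP vs. CK with the replicate block. In AC and PVP vs. CK it was 3.68-fold lower (log2 fold change -1.88, SE 0.52, adjusted p = 0.108 by edgeR), with no overlap between groups. Leaving out CK replicate 2, the CK library with the fewest counts of it, gave a log2 fold change of -2.25 and an adjusted p of 0.0353 by edgeR. This was the 1 call in 6 fits with a library left out. Over those fits the log2 fold change ran up to -1.32 and the adjusted p by edgeR up to 0.376. In PVP vs. CK the log2 fold change was 0.57 (SE 0.47, adjusted p = 0.688 by edgeR), and it was -0.15 with library sizes alone. As a description of the comparisons that chose it, AC differed on the log2 scale by -3.35 (SE 0.56) from CK and by -3.92 (SE 0.57) from PVP, and AC and PVP by -2.45 (SE 0.52) from PVP. The value for AC vs. AC and PVP was -1.47 (SE 0.59). Averaged over both levels of PVP, the libraries with AC differed from those without by -2.90 (SE 0.38), and averaged over both levels of AC, those with PVP by 1.02 (SE 0.38).

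The averaged log2 differences can be set side by side as values without a test, since they are built in part from the comparisons that chose the members. C7113 differed by -2.53 with PVP and -0.03 with AC, and C7A15 by 1.02 with PVP and -2.90 with AC. TRINITY_DN6_c0_g2 differed by 1.24 (SE 0.37) with PVP and 0.13 (SE 0.36) with AC. TRINITY_DN6_c0_g3 differed by 1.07 (SE 0.41) and 0.64 (SE 0.41). In the remaining counts of calls, 1 member passed the thresholds in AC vs. CK and 1 in AC vs. PVP, in both cases C7A15, where 0.324% and 0.263% of all unigenes tested did. No member passed in AC and PVP vs. PVP (0.0704% of all unigenes) or AC vs. AC and PVP (0.00687%). DESeq2 on all 12 libraries called 1 and 0 members there, DESeq2 on the 2 groups called 1 and 2, and 5471 and 3654 unigenes had an unadjusted p under 0.05 by edgeR. Since these 4 comparisons supplied the members, nothing is read from those counts.

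**Figure D3:**
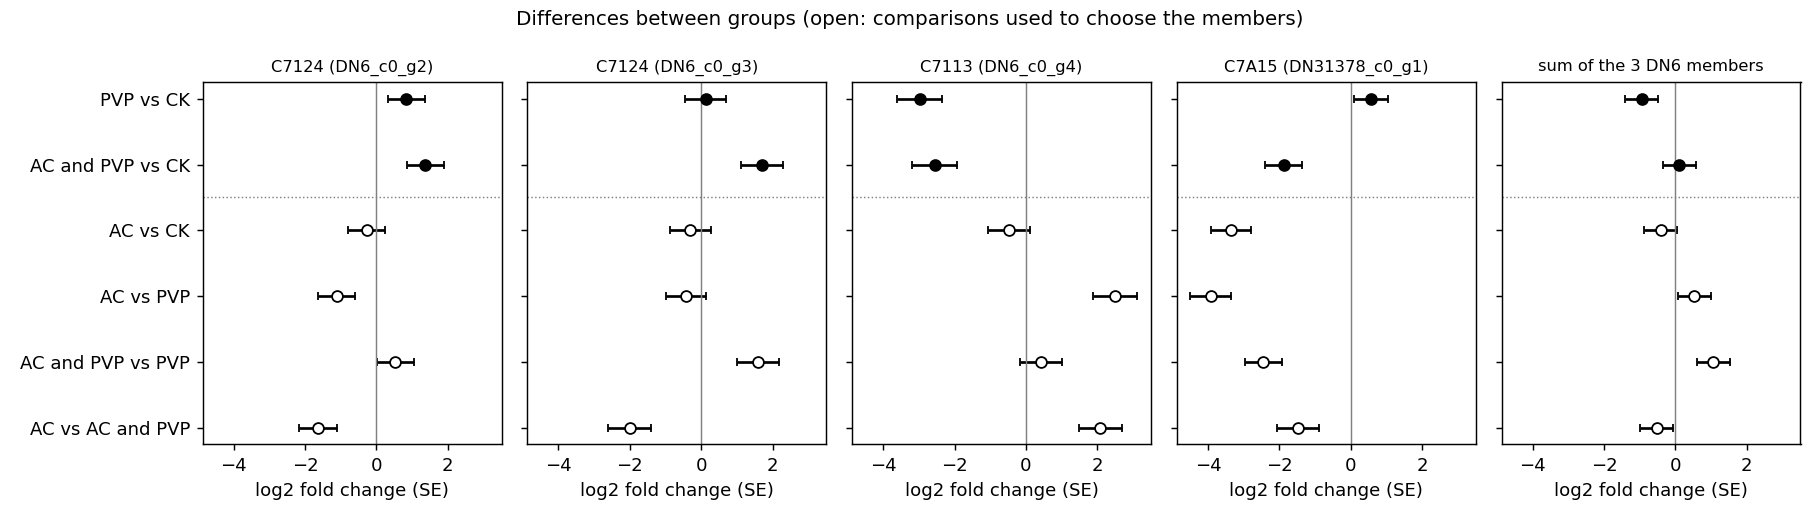
Log2 fold change and its SE of the 4 P450 unigenes and of the DN6 sum in 6 comparisons, the first group of each name over the second. Filled points above the dotted line are the 2 comparisons that supplied no list of DEGs, and open points are the 4 that supplied the members. C7113 is at -2.98 in PVP vs. CK while the DN6 sum is at -0.94.

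Over the 12 libraries, the 2 C7124 unigenes had a Pearson r of 0.84 between their log2 levels. TRINITY_DN6_c0_g2 and C7113 had an r of -0.80, which was -0.53 on CPM of the library total, and TRINITY_DN6_c0_g3 and C7113 had -0.45. C7A15 had an r between -0.18 and 0.07 with the other members. These are descriptions over libraries that share their group and depth, and reads divided within the DN6 cluster are not independent between its members.

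Among 666 unigenes with a symbol in the study's lists and a mean of at least 1 TMM-scaled CPM, the nearest in pattern to C7A15 were C86B1 (TRINITY_DN22332_c0_g1, r = 0.985), LTG20 (TRINITY_DN1741_c0_g1, r = 0.976) and NAT4 (TRINITY_DN8691_c0_g1, r = 0.972), and 28 candidates had an r over 0.9. C86B1 is a P450 symbol as well. Its TMM-scaled CPM had a mean of 3.94 ± 2.51 for CK and 7.61 ± 4.45 for PVP, with 0.447 ± 0.111 for AC and 1.37 ± 0.236 for AC and PVP (SD, n = 3). The nearest to C7113 were TRMB (TRINITY_DN1051_c0_g1, r = 0.908), WAKLD (TRINITY_DN18642_c0_g1, r = 0.868) and IF4E3 (TRINITY_DN10052_c0_g1, r = 0.867). TRMB had 24.0 ± 5.04 for CK and 6.92 ± 0.688 for PVP, with 18.5 ± 7.22 for AC and 9.80 ± 3.34 for AC and PVP. No candidate had an r over 0.9 with a C7124 unigene. The nearest to TRINITY_DN6_c0_g2 were PIP13 (r = 0.716), APTG1 (r = 0.675) and H32 (r = 0.674), and to TRINITY_DN6_c0_g3 IO (r = 0.732), GRXS9 (r = 0.700) and RSS3 (r = 0.686). The candidates were themselves listed because the study called them on these libraries.

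A further 16 unigenes with P450 symbols stood in the same lists, and all were tested. In PVP vs. CK 0 of 16 were called higher and 1 was called lower, where 0.53% and 0.173% of all unigenes were. Their median log2 fold change was 1.05 against -0.16 over all unigenes, with 11 of 16 above 0. The lists that supplied the 16 were drawn up in part on the same PVP libraries. Relative to PVP, their median was -1.44 for AC and -1.13 for the combination, with 4 of 16 above 0 in each case. The counts and the median in PVP vs. CK are therefore not independent of the choice, and nothing is read from their contrast with all unigenes. The 1 called was a C14C2 unigene, TRINITY_DN6959_c0_g1, a symbol of the P450 superfamily. It had 91.7, 170.4 and 125 TMM-scaled CPM in CK and 39.7, 47.5 and 37.7 in PVP. It had 42.1, 53.4 and 28.1 in AC and 28.7, 32.1 and 15.5 in AC and PVP. All 9 libraries with an agent lay below all 3 CK libraries, while for C7113 2 of the 3 AC libraries lay within the CK range. Its log2 fold change was -1.63 (SE 0.34, adjusted p = 0.0433 by edgeR) in PVP vs. CK and -2.34 (SE 0.35, adjusted p = 0.01 by edgeR) in AC and PVP vs. CK. The first call was lost whichever of the 6 libraries was left out (adjusted p = 0.0572 to 0.146 by edgeR), and the second without AC and PVP replicate 3 (adjusted p = 0.0624 by edgeR). The other C14C2 unigene, TRINITY_DN1528_c0_g1, was not called, with adjusted p-values of 0.236 and 0.824 by edgeR. TRINITY_DN9292_c0_g1, which shares the symbol C7A15 with a member, had a mean of 38.6 ± 3.74 for CK and 138 ± 44.0 for PVP. It had 48.6 ± 22.0 for AC and 53.9 ± 29.6 for AC and PVP (SD, n = 3). Its log2 fold change was 1.83 in PVP vs. CK (adjusted p = 0.0533 by edgeR). In AC and PVP vs. CK it was 0.48 (adjusted p = 0.622 by edgeR). As a value without a test, it was 0.33 in AC vs. CK.

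Of the 16, AC and PVP vs. CK had 1 called higher and 1 called lower, where 0.44% and 0.347% of all unigenes were, and the median was -0.02 against -0.12 over all unigenes. Libraries of both groups also entered comparisons that supplied the lists, so these values are not independent of the choice either. The 1 called higher was C93B2 (TRINITY_DN25528_c0_g1), a symbol of the family that holds flavone synthases. Its counts were 1, 16 and 3 in CK and 103, 38 and 46 in AC and PVP. In TMM-scaled CPM its highest CK library held 0.718 and its lowest AC and PVP library 2.55. Its log2 fold change was 3.83 (SE 0.72, adjusted p = 0.0254 by edgeR), and in PVP vs. CK it was 1.73 (adjusted p = 0.375 by edgeR). The call was lost without CK replicate 1 or 3 or AC and PVP replicate 1 or 3 (adjusted p = 0.0582 to 0.0951 by edgeR), and without CK replicate 2 the log2 fold change was 5.69.

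In the 4 comparisons that supplied the lists, the other P450 unigenes called were C86A1 (TRINITY_DN15387_c0_g1) and C86B1, symbols of fatty acid hydroxylases that in Arabidopsis work in suberin synthesis. Their log2 fold changes were -3.22 and -3.12 in AC vs. CK and -4.37 and -4.06 in AC vs. PVP, beside -3.35 and -3.92 for C7A15. C86A1 was also called in AC and PVP relative to PVP, at -2.88. Of the 16, 2 were called in AC vs. CK and 2 in AC vs. PVP, where 0.324% and 0.263% of all unigenes were. In AC and PVP vs. PVP 1 was called, where 0.0704% were, and 0 in AC vs. AC and PVP, where 0.00687% were. These comparisons chose the 16 and C7A15, so nothing is read from these counts or from the likeness of the values. In PVP vs. CK C86A1 and C86B1 were at 1.15 (adjusted p = 0.235 by edgeR) and 0.94 (adjusted p = 0.471 by edgeR), beside 0.57 for C7A15. Cytochrome b5 (CYB5E, TRINITY_DN11596_c0_g1), an electron donor of P450 enzymes, had a mean of 59.1 ± 84.2 TMM-scaled CPM for CK and 85.7 ± 52.0 for PVP, with 43.2 ± 35.3 for AC and 5.70 ± 4.62 for AC and PVP (SD, n = 3). It was not called in AC and PVP vs. CK (log2 fold change -3.36, SE 1.17, adjusted p = 0.217 by edgeR), and without CK replicate 1 the log2 fold change was -0.79.

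**Figure D4:**
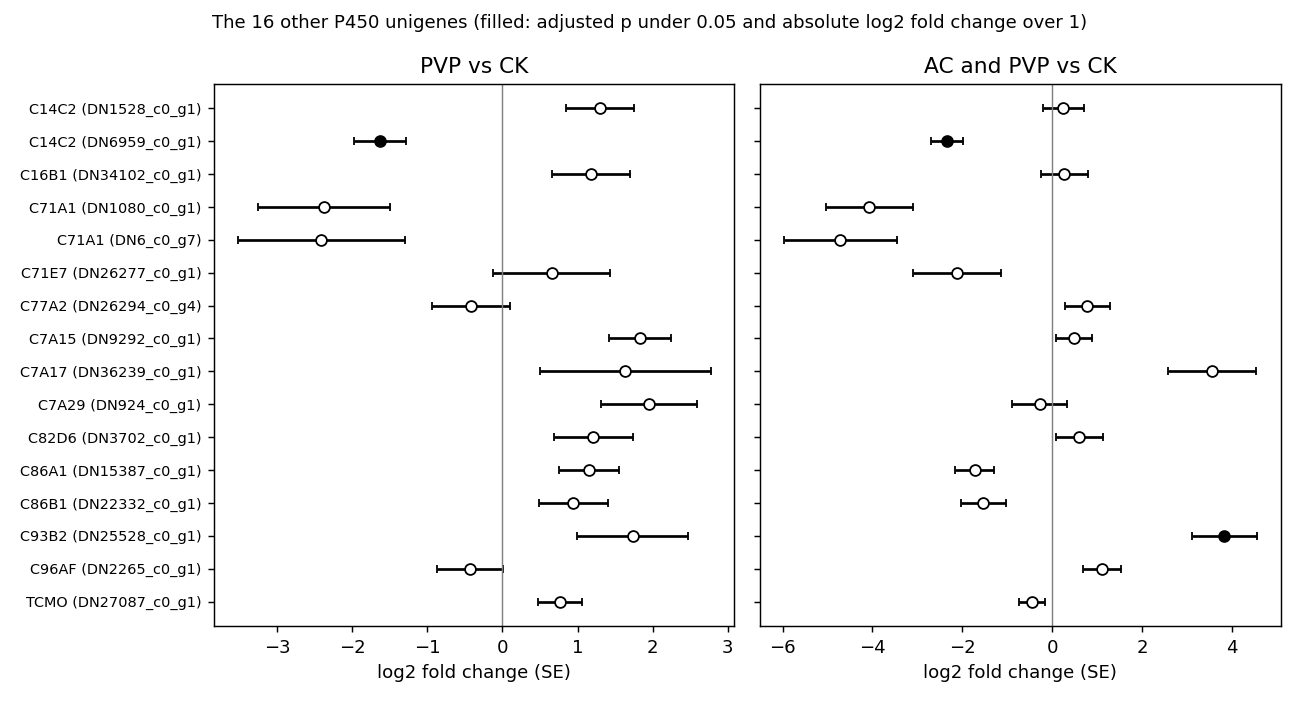
Log2 fold change and its SE of the 16 other P450 unigenes in PVP vs. CK and in AC and PVP vs. CK, with filled points for those called. The C14C2 unigene TRINITY_DN6959_c0_g1 is called lower in both, at -1.63 and -2.34, and C93B2 is called higher in AC and PVP vs. CK, at 3.83.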

How the data were processed

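RNA of 12 libraries was analysed, grouped by the sample titles. Reads were trimmed by the authors (TrimGalore) and assembled de novo (Trinity). The authors deposited an estimated count per unigene from RSEM after mapping with Bowtie, without scaling or unigene lengths. Between 2.39% and 3.97% of the values per library were not whole, and all were rounded for testing. Symbols come from the study's lists of DEGs. The fold changes, p-values and per-sample columns of those lists were not used.

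The 58247 unigenes seen in 3 or more libraries were compared by quasi-likelihood tests in edgeR 4.0.16 (R 4.3.3, limma 3.58.1) after TMM scaling, with 1 fit for the 12 libraries. P-values were adjusted by Benjamini-Hochberg over these unigenes. SE is the absolute log2 fold change over the square root of F. The DN6 sum replaced its 3 members in a second fit. Likeness is Pearson r of log2(TMM-scaled CPM + 0.5). Marker sums are CPM of the library total. The members, lists and tests were chosen with earlier results of these data known, and effects averaged over both levels of an agent were added after the values were seen. Named unigenes are the members, tested DN6 unigenes, the 3 nearest in likeness to each member, P450 unigenes called in any comparison, and CYB5E. TRINITY_DN1528_c0_g1, TRINITY_DN9292_c0_g1 and the untested DN6 unigenes were named after their values were seen. The study calls its samples biological replicates. Alternatives were DESeq2 1.42.0, RLE scaling, library sizes only, other filters, edgeR on 2 groups, a replicate block and each library left out in turn. The scripts were tested on simulated counts for PVP vs. CK. The changed unigenes all had a mean CPM over 1, and differences in scaling factor between libraries were not simulated. Of 50 unigenes changed at each fold, 1 was called at 2-fold, 12 at 4-fold, 41 at 8-fold and 42 at 16-fold. Of the 108 calls there, 12 were false. A unigene that was not called may thus still differ by a few fold.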

Additional observations from a re-analysis of the deposited data

How the results depend on the processing

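No call changed direction. Among log2 fold changes of the members and their sum that were not called, TRINITY_DN6_c0_g3 and C7A15 in PVP vs. CK were below 0 with library sizes only and in 3 and 1 of 6 fits with a library left out. The DN6 sum in AC and PVP vs. CK was -0.22 with library sizes only, -0.02 over all DN6 unigenes and -0.16 without AC and PVP replicate 3. In AC vs. CK, TRINITY_DN6_c0_g2 and TRINITY_DN6_c0_g3 were 0.81 and 0.80 without CK replicate 1, the former was 0.02 without AC replicate 2, and C7113 was 0.03 without CK replicate 2. The difference made by AC with PVP minus that without it was -0.25 for TRINITY_DN6_c0_g2 without CK replicate 1. Of the 4 members, the number called in PVP vs. CK was 1, and 0 with RLE size factors and with edgeR on the 2 groups. In AC and PVP vs. CK it was 0, and 4 with no filter and with the replicate block, 2 with library sizes only, and 1 with DESeq2 on all 12 libraries and on the 2 groups. In AC vs. CK it was 1, and 0 with edgeR on the 2 groups. In AC vs. PVP it was 1, and 2 with no filter, library sizes only, the replicate block and both DESeq2 fits. In AC and PVP vs. PVP it was 0, and 2 with no filter and 1 with the replicate block and both DESeq2 fits. In AC vs. AC and PVP it was 0, and 3 with no filter and 2 with DESeq2 on the 2 groups. With 1 library left out in turn, it ranged from 0 to 1 in the 3 comparisons with CK, from 0 to 2 in AC vs. PVP and was 0 in the other 2. Of the 16 other P450 unigenes, 1 was called in PVP vs. CK, and 2 with RLE size factors and with filterByExpr, 7 with no filter, 6 with the replicate block, 3 with DESeq2 on all 12 libraries, 4 on the 2 groups and 0 with any library left out. For AC and PVP vs. CK the number was 2, and 7 with no filter, 5 with library sizes only, 6 with the replicate block, 6 and 4 with DESeq2, 0 with edgeR on the 2 groups and 0 to 3 with a library left out; these fits were added after the data were seen.

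Over all unigenes, 410 were called in PVP vs. CK, and 839 with filterByExpr, 1146 with library sizes only, 1297 with the replicate block, 1673 with DESeq2 on all 12 libraries and 1609 on the 2 groups. In AC and PVP vs. CK 458 were called, and 821, 764, 1433, 1608 and 1487 under the same settings. The replicate block, DESeq2 on all 12 libraries and DESeq2 on the 2 groups called 682, 823 and 568 in AC vs. CK (189), 653, 721 and 841 for AC vs. PVP (153) and 48, 41 and 101 for AC vs. AC and PVP (4), where filterByExpr called 1. For AC and PVP vs. PVP (41) they called 429, 335 and 829, and filterByExpr 5. With 1 library left out in turn, 4 to 267 were called in PVP vs. CK, 50 to 736 in AC and PVP vs. CK, 0 to 415 in AC vs. CK, 53 to 146 in AC vs. PVP, 2 to 20 in AC vs. AC and PVP, and 5 to 181 for AC and PVP vs. PVP. The causes were not tested.

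Whether replicate numbers pair the libraries was not settled. The study calls its replicates paired without saying by what. Deviations from the group means were compared between libraries of different groups only. Of 12 libraries, 9 correlated best with a library of their own number, and 4 of 18 same-numbered pairs had correlations over 0.1. The values expected without pairing were not computed, so these do not decide for or against the block. The fit without it is reported as the main one, and the calls depend on that choice. In AC and PVP vs. CK, 0 of the 4 members were called without the block and 4 with it, beside 458 and 1433 of all unigenes. With the replicate block C7113 had a log2 fold change of -2.87 in PVP vs. CK and -2.42 in AC and PVP vs. CK. The counts of C7A15, 6 to 20 in the libraries with AC, limit its precision.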
